A study of Mus musculus with 10 samples.

Results

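The subject here is a group of 10 genes whose transcription follows neuronal activity, measured in the preoptic region of the mouse hypothalamus. They are the transcription factor genes Egr1, Egr2, Egr3 and Egr4, the nuclear receptor genes Nr4a1, Nr4a2 and Nr4a3, and the synaptic and growth factor genes Arc, Homer1 and Bdnf. A probe set, the group of short probes on the array that reports one transcript region, was included if its annotation named exactly 1 gene and that gene was one of the 10. This gave 25 of the 45037 probe sets that are not controls, and 10 of the 18193 genes with a probe set. The mice were of strain DBA1/lacJ, and 5 were labelled KO, for the inducible enzyme that makes prostaglandin E2 (mPGES-1, encoded by Ptges), and 5 were labelled WT. All 10 mice received 120 µg/kg of lipopolysaccharide (LPS), a bacterial cell wall component that causes fever, into the peritoneum. Brains were removed 5 h later, and RNA of the preoptic region, collected with a laser from sections, was amplified in 2 rounds and put on 1 array per mouse. The question the design poses is which transcripts differ between the genotypes after LPS. Induction by LPS itself was not measured, since mice that had no LPS are not analysed here. Neither the deleted part of Ptges nor whether the groups were littermates is stated in the labels.

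As background, these genes are immediate early or activity-regulated genes. Calcium entry and growth factor signals in neurons activate CREB, SRF and MEF2 transcription factors, which switch on Egr, Nr4a and Arc genes within minutes, and their mRNA usually decays within hours. EGR proteins are zinc finger transcription factors, NR4A proteins are orphan nuclear receptors, Arc and Homer1 act at excitatory synapses, and BDNF is a secreted neurotrophin. Several are also induced in endothelial and immune cells by inflammatory stimuli. Some are well expressed in the striatum, which lies near the preoptic region.

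Promoter windows of 300 bases around annotated transcription starts, lying mostly upstream (RefSeq, GRCm38.p6), were used for 7 of the 10 members, Bdnf, Egr2, Egr4, Homer1, Nr4a1, Nr4a2 and Nr4a3. They are shown for Homer1, Egr4 and Nr4a3, which had the members' probe sets with unadjusted p below 0.05 among those 7, and for Egr2, which alone of those 7 held a CArG box (the site bound by SRF). Capitals mark the CArG box and TGACG, the opening part of the cyclic AMP response element (CRE, TGACGTCA) that CREB binds. TGACG is called the CRE core here and is marked on either strand (CGTCA on the other). The windows lie at chr13:93303507-93303806 (Homer1, plus strand), chr6:85513540-85513839 (Egr4, minus strand), chr4:48045055-48045354 (Nr4a3, plus strand) and chr10:67537619-67537918 (Egr2, plus strand), and each is printed 5′ to 3′ in the direction of the gene.
Homer1: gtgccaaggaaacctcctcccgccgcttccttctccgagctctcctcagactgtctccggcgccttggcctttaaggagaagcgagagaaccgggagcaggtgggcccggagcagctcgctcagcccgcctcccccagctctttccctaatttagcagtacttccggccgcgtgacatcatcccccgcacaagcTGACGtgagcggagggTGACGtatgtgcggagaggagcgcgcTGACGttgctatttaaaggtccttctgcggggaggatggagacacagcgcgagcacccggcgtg
Egr4: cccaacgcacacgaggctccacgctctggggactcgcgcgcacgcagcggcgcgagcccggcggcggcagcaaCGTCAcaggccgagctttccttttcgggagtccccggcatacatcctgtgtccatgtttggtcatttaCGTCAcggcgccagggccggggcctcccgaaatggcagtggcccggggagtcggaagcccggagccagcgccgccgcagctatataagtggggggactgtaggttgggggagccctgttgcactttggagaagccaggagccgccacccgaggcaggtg
Nr4a3: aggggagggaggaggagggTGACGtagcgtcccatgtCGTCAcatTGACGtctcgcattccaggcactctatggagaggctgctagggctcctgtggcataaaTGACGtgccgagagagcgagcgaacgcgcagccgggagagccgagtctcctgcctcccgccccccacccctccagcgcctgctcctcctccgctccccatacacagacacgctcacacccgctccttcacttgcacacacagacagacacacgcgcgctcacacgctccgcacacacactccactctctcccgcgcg
Egr2: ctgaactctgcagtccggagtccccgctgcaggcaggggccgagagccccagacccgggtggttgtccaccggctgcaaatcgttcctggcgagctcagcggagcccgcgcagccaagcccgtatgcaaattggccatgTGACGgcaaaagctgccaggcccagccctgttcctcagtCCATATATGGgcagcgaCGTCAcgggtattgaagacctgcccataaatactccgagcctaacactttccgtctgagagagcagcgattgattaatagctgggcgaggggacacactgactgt

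A CRE core was found in at least 1 window of each of the 7 members, in 9 of their 18 windows, beside 20.8% of all 32851 windows in the table. Of the 9, 3 are overlapping windows of Egr2 that hold the same 2 cores. Homer1 held 3 in the window shown and 0 in its second window, Egr4 held 2, and Nr4a1, Nr4a2 and Nr4a3 held 4 each. Bdnf, which has 7 annotated starts, held 1 in a single window. The CArG box was found in 4 windows, all of Egr2 and 3 of them overlapping each other, beside 1.63% of all windows. The full CRE TGACGTCA, which contains the core, the EGR motif GCGTGGGCG and the NR4A motif AAAGGTCA were found in 0 of the 18 windows, beside 1.79%, 0.612% and 1.51% of all windows. The TATA box letters TATAAA, searched on either strand, were found in 1, of Nr4a2, beside 13.6%. That match lies on the strand opposite to the gene, at -164 to -159 from the start. A match describes the letters of the window and does not show that a factor binds there.

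Some features of the arrays touch the results. The scaled arrays labelled KO had lower median intensities than those labelled WT, 24.6 to 29.8 against 32.0 to 44.8, with no overlap. Signal of the hybridization control probe sets averaged 3828 to 6654 on KO arrays and 5609 to 14046 on WT arrays. Only WT replicate 5 lay within the KO range. In fits with this signal as a covariate, signal and label can therefore hardly be told apart. KO replicate 3 stands apart: its Ttr signal, a choroid plexus marker, was 6161, where the other 9 arrays had 75.5 to 446, and like WT replicates 2 and 5 it carried no signal from the poly-A RNAs spiked in before amplification. Ptges itself was not lower under the KO label. Its probe set 1439747_at gave 17.5 to 76.1 on KO arrays and 1.51 to 9.33 on WT arrays. The groups overlapped in 1449449_at, at 9.83 to 60.2 on KO and 1.25 to 34.6 on WT arrays, and in 1449450_at, at 22.2 to 61.5 on KO and 2.75 to 57.8 on WT arrays. Since the deleted part is not known, all directions rest on the labels. Preoptic and hypothalamic markers were present, with the GABA-synthesis gene Gad2, the galanin gene Gal and the estrogen receptor gene Esr1 above the 85th percentile of level in the table, while Galr1, Hcrt, Sim1 and Nkx2-1 were below the 50th.

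None of the 25 probe sets passed the threshold for a genotype difference after adjustment over all probe sets. The 2 brightest Homer1 probe sets and Egr1 came nearest, all higher under the KO label. Values were compared as log2(intensity + 16) with limma, and called at a Benjamini-Hochberg adjusted p below 0.05. Of all 45037 probe sets 0 were called (0.0%), with a smallest limma adjusted p of 0.111, and 5696 had an unadjusted p below 0.05 (12.6%). Of the 25, 5 had an unadjusted p below 0.05, or 20%. The 3 higher ones, at 3.68% of all probe sets in that direction, were Homer1 1437363_at and 1436387_at and Egr1 1417065_at. The 2 lower ones, at 8.97% of all probe sets in that direction, were Egr4 1449977_at and Nr4a3 1421080_at. In 1 of the 25, Homer1 1436387_at, every KO array lay above every WT array, against 0.808% of all probe sets. No member probe set was wholly lower, where 2.42% of all probe sets were; the groups were apart in either direction in 3.22% of all probe sets.

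**Figure D1:**
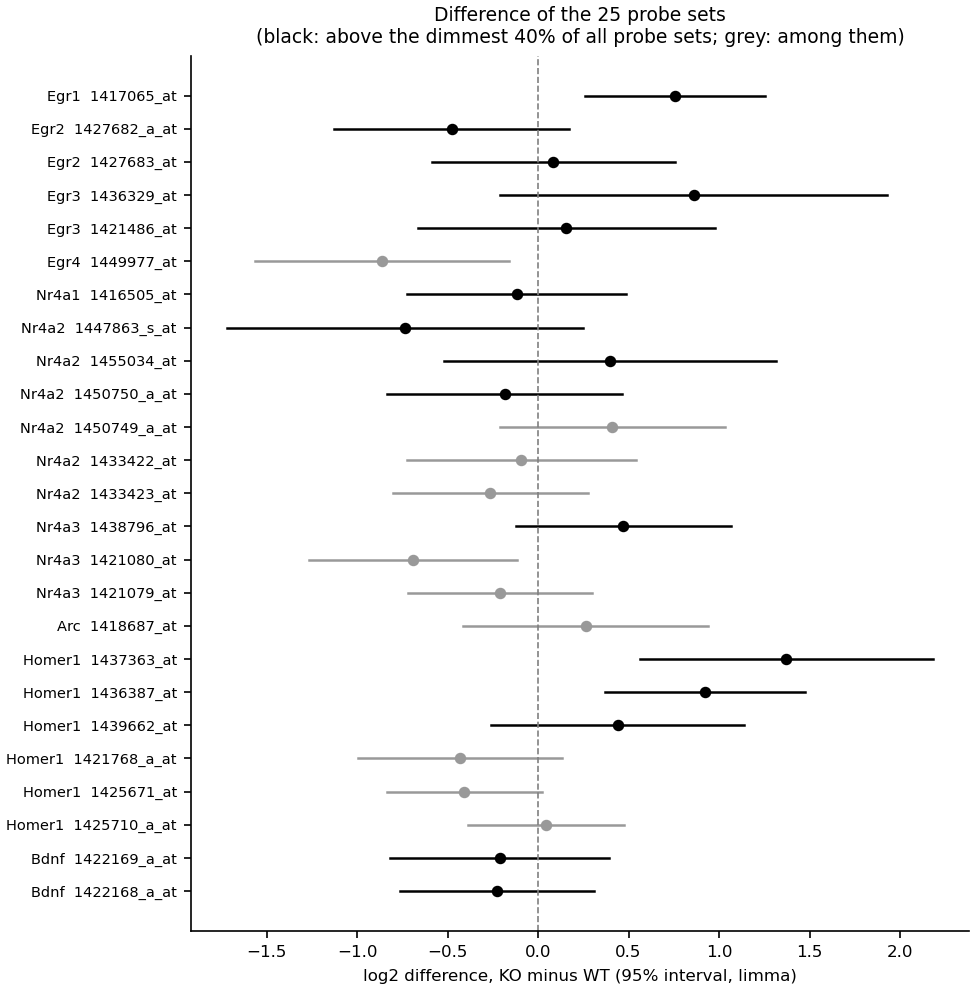
Difference in log2(intensity + 16), KO minus WT, of each of the 25 probe sets (points) with the 95% interval of limma's fit (lines, n = 5 per group). The interval of 3 probe sets of Homer1 and Egr1 lies above 0, that of 1 probe set each of Egr4 and Nr4a3 lies below 0, and 10 probe sets (grey) are among the dimmest 40% of the table.

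Levels differed widely among the 25 probe sets. Above the dimmest 40% of all probe sets lay 15 of the 25, of which 9 were higher and 6 lower under the KO label, with a median difference of 0.16. The other 10 comprised 3 higher and 7 lower, with a median of -0.24. Over all probe sets the median was -0.14 in the dimmest of 5 equal level classes, then -0.24, -0.21 and -0.08, and 0.03 in the brightest. Taking all levels, it was -0.13 and 34.9% were higher, while the 25 had a median of -0.09 with 12 higher. Of the 6 members with more than 1 probe set, 4 had probe sets on both sides of 0 (Egr2, Nr4a2, Nr4a3 and Homer1).

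**Figure D2:**
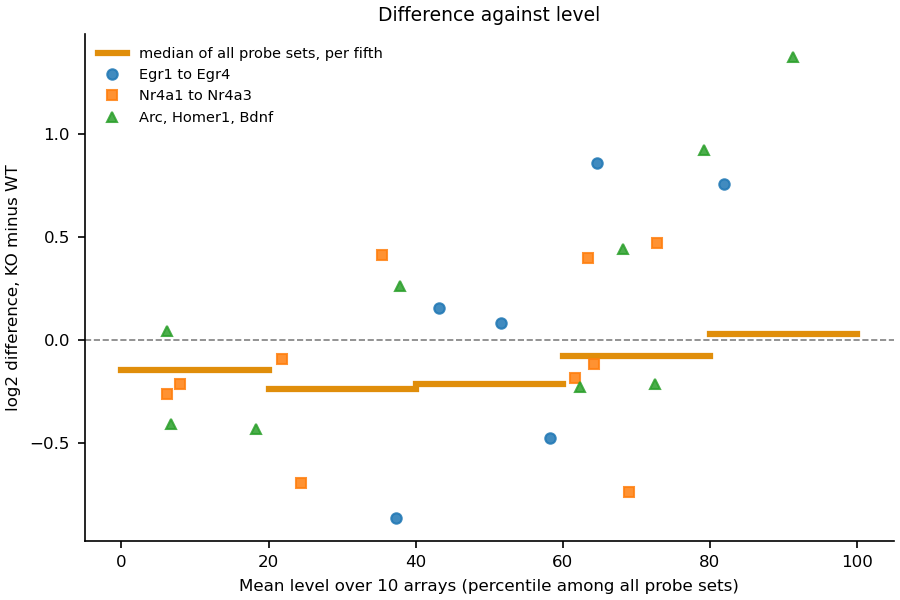
Difference in log2(intensity + 16), KO minus WT, against the percentile of a probe set's mean level among all probe sets, for the 25 probe sets (symbols by gene family). Orange bars are the medians of all probe sets in each of 5 level classes, from -0.14 and -0.24 in the dimmest to 0.03 in the brightest; the highest point is Homer1 1437363_at at 1.37.

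Of the EGR factors, Egr1 was the brightest and had the smallest p. Egr1 encodes a zinc finger activator that is widely used as a marker of recent neuronal activity. Its single probe set, 1417065_at, had intensities of 478, 211, 487, 309 and 226 in KO replicates 1 to 5 and 217, 218, 144, 160 and 194 in WT replicates 1 to 5. KO replicates 1, 3 and 4 were above every WT array, KO replicate 5 was just above them, and KO replicate 2 lay within the WT range. The means were 342 ± 134 on KO arrays and 187 ± 33.4 on WT arrays (SD, n = 5 each), and the log2 difference was 0.76 (SE 0.24, 95% interval 0.26 to 1.25, limma adjusted p = 0.215). Without KO replicate 3 the difference was 0.61, and it was 0.71 over only the 7 arrays that had spike-in signal.

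Egr3, a close relative of Egr1 that is expressed in the striatum among other areas, varied widely between mice of each group. Probe set 1436329_at read 163, 110, 339, 19.8 and 31.6 on KO arrays and 65.1, 93.9, 39.8, 28.0 and 15.7 on WT arrays. KO replicates 1 to 3 were above all WT arrays and KO replicates 4 and 5 lay within the WT range. The log2 difference was 0.86 (SE 0.51, interval -0.21 to 1.93, limma adjusted p = 0.489), 0.43 without KO replicate 3, and 0.43 over only the arrays that had spike-in signal. It was 1.25 without KO replicate 4 and 1.83 with the hybridization control signal as a covariate. The second probe set, 1421486_at, ranged from 17.0 to 37.0 on KO arrays and from 3.40 to 57.9 on WT arrays, with a difference of 0.16 (SE 0.39).

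Egr4, an EGR factor found mainly in neurons, was dim, at the 37.3th percentile of level. Its intensities were 14.4, 5.18, 4.56, 5.91 and 11.3 on KO arrays and 48.8, 62.5, 24.2, 21.8 and 4.22 on WT arrays. WT replicates 1 to 4 exceeded every KO array, and WT replicate 5 was the lowest of all 10. The difference was -0.86 (SE 0.33, interval -1.56 to -0.16, limma adjusted p = 0.300), where all probe sets of its level class had a median of -0.24. The pseudocount of 16 shortens changes of dim signals, but signals this dim cannot be told from background here. With the hybridization control signal as a covariate the Egr4 difference was -0.30 (limma adjusted p = 0.944).

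Egr2, which in addition to its activity response directs myelination by Schwann cells, gave readings on both sides. Probe set 1427682_a_at read 44.97, 33.3, 46.3, 25.1 and 24.0 on KO arrays and 24.1, 84.4, 44.7, 89.4 and 46.4 on WT arrays, with overlap throughout the KO range. Its difference was -0.48 (SE 0.31, limma adjusted p = 0.529), and that of 1427683_at was 0.08 (SE 0.32, limma adjusted p = 0.933). The brightest probe sets of Egr1 and Egr3 were thus higher and those of Egr2 and Egr4 lower under the KO label, with none past the threshold.

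**Figure D3:**
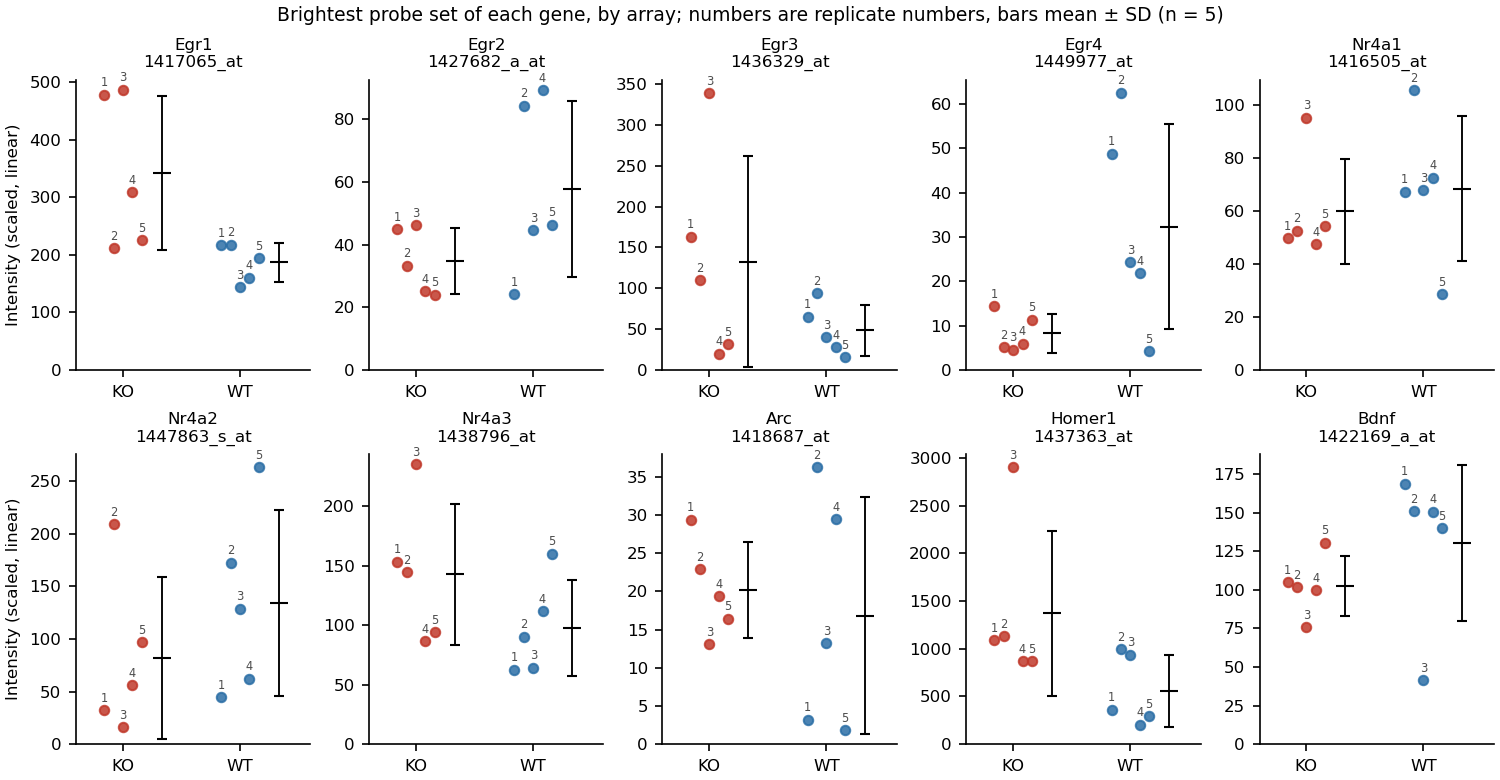
Scaled linear intensity of the brightest probe set of each member on the 5 KO (left) and 5 WT (right) arrays; points are mice with their replicate numbers and bars are mean ± SD. Egr1 averaged 342 on KO and 187 on WT arrays and Homer1 1375 and 559, while the groups overlap in all 10 panels; KO replicate 3 is the highest KO array for Egr1, Egr2, Egr3, Nr4a1, Nr4a3 and Homer1.

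Among the NR4A receptors no gene had a direction shared by all its probe sets apart from Nr4a1, which has 1. Nr4a1 (Nur77), a receptor induced by activity in neurons and by inflammatory signals in macrophages, read 49.6, 52.5, 95.01, 47.3 and 54.2 on KO arrays and 67.2, 106, 67.6, 72.4 and 28.6 on WT arrays. The lowest and the highest array were both labelled WT. The difference was -0.12 (SE 0.29, interval -0.72 to 0.49, limma adjusted p = 0.889), and it was 0.034 with quantile normalization.

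Nr4a2 (Nurr1), which dopamine neurons need for their development and upkeep, has 6 probe sets, of which 2 were higher and 4 lower under the KO label. The brightest, 1447863_s_at, read 32.6, 209, 16.0, 55.9 and 97.2 on KO arrays and 44.9, 173, 129, 62.4 and 263 on WT arrays, a difference of -0.74 (SE 0.47, limma adjusted p = 0.521). The next, 1455034_at, read 37.8, 306, 40, 56.1 and 48.3 on KO arrays and 43.3, 63.2, 97.5, 18.9 and 44.5 on WT arrays, a difference of 0.40 (SE 0.44, limma adjusted p = 0.726). KO replicate 2 was the highest KO array in both, and without it the second difference was -0.080. The other 4 (1450750_a_at, 1450749_a_at, 1433422_at and 1433423_at) lay between -0.26 and 0.41, with limma adjusted p of 0.577 to 0.920, and 3 of these probe sets were among the dimmest 40% of the table.

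Nr4a3 (Nor1), the third receptor of the family, has a brighter probe set and a pair of dim ones. The brighter one, 1438796_at, read 153, 145, 235, 86.5 and 94.3 on KO arrays and 62.5, 90.3, 64.2, 112 and 160 on WT arrays. The ranges overlapped, and the difference was 0.47 (SE 0.28, limma adjusted p = 0.495), or 0.29 without KO replicate 3 and 0.27 with the hybridization control covariate. The dim 1421080_at went the other way, at 4.07, 2.21, 8.57, 4.12 and 4.40 on KO arrays and 6.92, 33.5, 21.6, 31.3 and 3.99 on WT arrays, so WT replicates 2 to 4 stood out and WT replicate 5 did not. Its difference was -0.69 (SE 0.27, interval -1.26 to -0.12, limma adjusted p = 0.310), and -0.028 with the hybridization control signal as a covariate. The third probe set, 1421079_at, was at -0.21 (SE 0.24).

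Homer1 had the highest difference of the 10 members. The gene encodes a scaffold that links metabotropic glutamate receptors to their signalling partners, and neuronal activity switches it to a short form that lacks the coiled-coil end of the long forms. Probe set 1437363_at read 1091, 1134, 2908, 873 and 868 on KO arrays and 361, 997, 938, 206 and 294 on WT arrays. WT replicates 2 and 3 reached into the KO range, and WT replicates 1, 4 and 5 were well below it. The mean was 1375 ± 866 on KO arrays and 559 ± 377 on WT arrays (SD, n = 5 each), and the difference was 1.37, a 2.59-fold higher level (SE 0.39, interval 0.56 to 2.18, limma adjusted p = 0.180).

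The second Homer1 probe set, 1436387_at, read 189, 259, 471, 202 and 280 on KO arrays and 148, 127, 164, 69.6 and 184 on WT arrays. The groups did not overlap, though the lowest KO array (189) and the highest WT array (184) were close. The difference was 0.92, or 1.89-fold (SE 0.26, interval 0.37 to 1.47, limma adjusted p = 0.184). Without KO replicate 3, the highest array in both, these differences were 1.06 (1437363_at) and 0.72 (1436387_at). Another, 1439662_at, read 147, 81.5, 206, 47.8 and 59.8 on KO arrays and 62.7, 120, 53.9, 67.1 and 43.7 on WT arrays, with a difference of 0.44 (SE 0.33, limma adjusted p = 0.596). That difference was 0.19 without KO replicate 3, and 1.01 with the hybridization control covariate.

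The remaining 3 Homer1 probe sets were at or below the 18.3th percentile of level and read 0.251 to 15.0 on KO arrays and 0.955 to 35.4 on WT arrays. Their differences were -0.43 (1421768_a_at, SE 0.27), -0.41 (1425671_at, SE 0.20) and 0.04 (1425710_a_at, SE 0.21). The annotation used here names no transcript form for any of the 6, so short and long forms are not assigned. The 3 brighter Homer1 probe sets were thus at 0.44 to 1.37 and the 3 dim ones at -0.43 to 0.04.

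**Figure D4:**
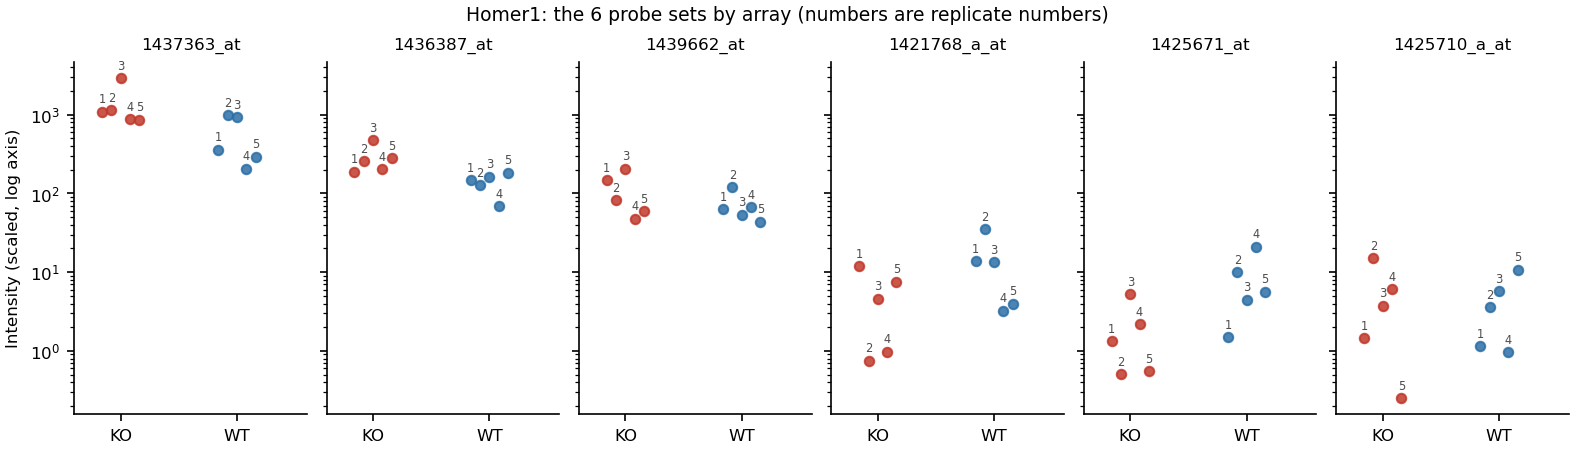
Scaled intensity (log axis) of the 6 Homer1 probe sets on the KO (left) and WT (right) arrays, with replicate numbers, ordered by level. The groups are apart only in 1436387_at (189 to 471 on KO and 69.6 to 184 on WT arrays); the 3 panels on the right stay below 36.

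Arc encodes a postsynaptic protein that removes AMPA receptors from synapses. Its single probe set, 1418687_at, was dim, at the 37.9th percentile, and read 29.4, 22.9, 13.0, 19.4 and 16.4 on KO arrays and 3.20, 36.2, 13.2, 29.5 and 1.80 on WT arrays. The WT arrays spanned the whole KO range on both sides. The difference was 0.26 (SE 0.32, interval -0.42 to 0.94, limma adjusted p = 0.757). Single WT arrays moved it: leaving out replicate 5 gave 0.076, replicate 1 gave 0.10, replicate 4 gave 0.41 and replicate 2 gave 0.46. It was 0.95 with the hybridization control covariate.

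Bdnf encodes brain-derived neurotrophic factor, which is transcribed from several promoters. Its probe set 1422169_a_at read 105, 102, 75.9, 99.7 and 131 on KO arrays and 169, 151, 41.7, 151 and 140 on WT arrays. All WT arrays except replicate 3 were above every KO array, and WT replicate 3 was the lowest of all. The difference was -0.21 (SE 0.29, interval -0.82 to 0.39, limma adjusted p = 0.784), and -0.52 without WT replicate 3. The second probe set, 1422168_a_at, was at -0.23 (SE 0.26), with 29.1 to 64.4 on KO arrays and 42.8 to 70.6 on WT arrays.

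Centring each array on its median, which moved the median difference of all probe sets to 0.15, was the only one of the settings tried under which any member was called. Egr1 (1.04, limma adjusted p = 0.041), Homer1 1437363_at (1.65, 0.036) and Homer1 1436387_at (1.202, 0.043) then passed as higher, 3 of 25 beside 1.21% of all probe sets. With quantile normalization, the other rescaling tried, these 3 were at 0.72, 1.31 and 0.94, and their limma adjusted p ranged from 0.261 to 0.326.

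Markers of striatal projection neurons, cells of a region near the preoptic one, were examined beside the members. Of 8 striatal markers measured, of 10 listed, 7 were higher under the KO label, with a median difference of 1.08 beside -0.09 over all genes, and 0 were called. Their summed intensity was 4990, 4732, 6246, 1696 and 3009 on KO arrays and 1869, 1558, 1630, 1188 and 1315 on WT arrays. KO replicates 1 to 3 were highest and KO replicate 4 lay within the WT range. The dopamine receptor gene Drd1 had a difference of 1.24 (SE 0.44) and the phosphodiesterase gene Pde10a one of 1.605 (SE 0.32), at limma adjusted p of 0.257 for Drd1 and 0.114 for Pde10a. Arpp21 was at 2.04 (SE 0.49), the substance P precursor gene Tac1 at 1.42 (SE 0.21) and the enkephalin gene Penk at 0.93 (SE 0.33), and their limma adjusted p ranged from 0.111 to 0.260. These are values of the brightest probe sets. On the other side of 0 were 2 of the 5 probe sets of Arpp21, 1 of 2 of Tac1 and 1 of 5 of Pde10a, but 0 of Drd1 and Penk. The lower one was Rgs9 at -0.25, and Ppp1r1b and Drd2 were below the 40th percentile of level. In bulk tissue, a different share of a cell type and a different amount of RNA per cell cannot be told apart.

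With group means removed, Egr3 1436329_at followed the log2 of this sum over the 10 arrays (Pearson r = 0.891, exact permutation p = 0.0024 within groups, adjusted 0.024 over 10 members; Spearman rho = 0.815, exact p = 0.00875, adjusted 0.088). Leaving out the 2 arrays whose sums lay farthest from the median gave r = 0.839, and the 7 arrays that had spike-in signal gave r = 0.935. This relation was looked at after the values were seen. Homer1 1437363_at had an r of 0.538 (exact permutation p = 0.071, adjusted 0.356; rho = 0.588, exact p = 0.107) and Egr1 an r of 0.405 (exact permutation p = 0.390, adjusted 0.579; rho = 0.332, exact p = 0.383). The other 7 members had r between -0.23 and 0.44. The part of the striatal markers in the differences of Egr1, Egr3 and Homer1 was not tested.

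**Figure D5:**
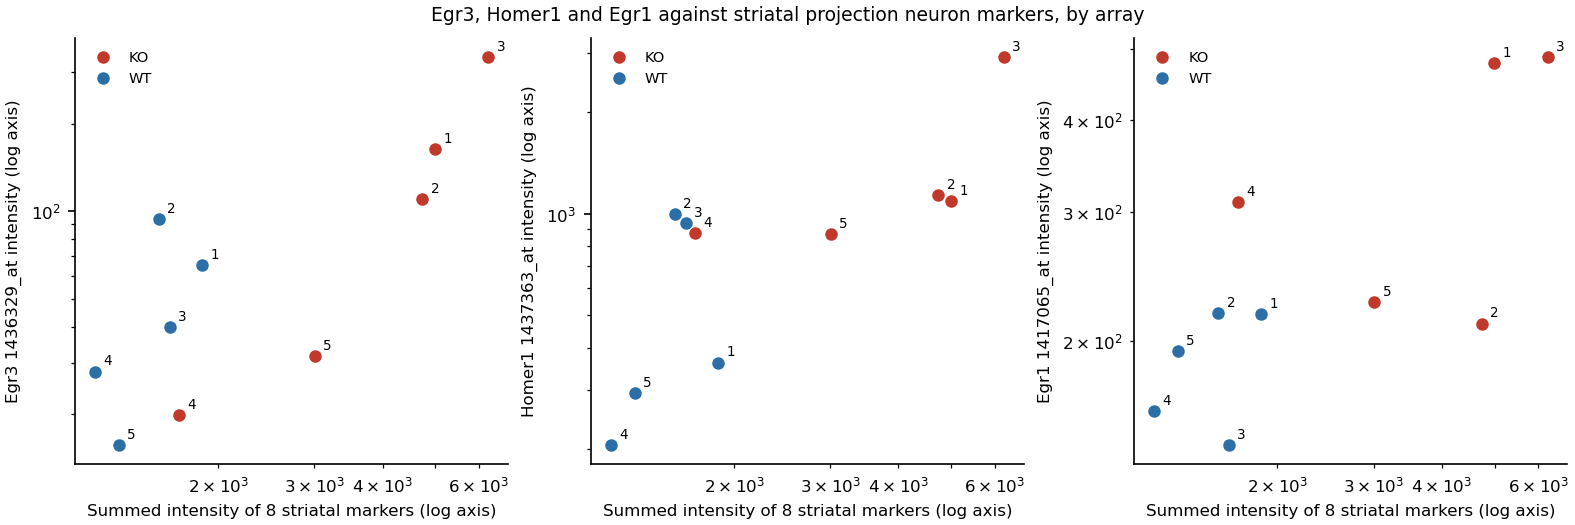
Intensity of Egr3, Homer1 and Egr1 probe sets against the summed intensity of 8 striatal projection neuron markers (both log axes), 1 point per mouse with its replicate number. KO replicates 1, 2 and 3 have sums of 4732 to 6246 and the 3 highest Egr3 values (110 to 339); KO replicate 4, with a sum of 1696 within the WT range, has 19.8 for Egr3, 873 for Homer1 and 309 for Egr1.

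Markers of other cell types were also measured, where 11022 of all 18193 genes were lower under the KO label. Cortical and hippocampal excitatory neuron markers summed to 108 to 488 on KO arrays and 131 to 325 on WT arrays, with Slc17a7 below the 40th percentile. Microglia and macrophage markers were lower in 5 of 6, with sums of 4760 to 6889 on KO arrays and 6666 to 10321 on WT arrays. Most of each sum was Csf1r alone, at 4477 to 6213 on KO arrays and 6241 to 9479 on WT arrays. Endothelial markers were lower in 4 of 6, with sums of 433 to 712 on KO arrays and 631 to 1250 on WT arrays. None was called, and their part in the differences of Nr4a1, Egr4 and the other members was not tested.

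Variation of the members from mouse to mouse was compared in pairs. Over the 45 pairs of brightest probe sets, with group means removed, 30 correlations were above 0 with a median r of 0.14, and 0 passed after adjustment (3 at unadjusted exact p below 0.05, smallest adjusted p = 0.355). The nearest were Egr3 with Nr4a1 (r = 0.669, exact permutation p = 0.0087; rho = 0.641, exact p = 0.054) and Egr3 with Homer1 (r = 0.678, exact permutation p = 0.016; rho = 0.827, exact p = 0.013). Without KO replicates 3 and 4, the arrays farthest from the median of Egr3, r was 0.558 and 0.538. Arc, often used beside Egr1 to mark active neurons, had its highest correlation with Egr2 (r = 0.756, exact permutation p = 0.067; rho = 0.457, exact p = 0.275), and r was 0.595 without WT replicates 1 and 4.

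Of 26 other rapidly induced activity genes 9 were higher and 17 lower, with a median of -0.09 beside -0.09 over all genes, where 39.4% were higher, and 0 were called (2 at unadjusted p below 0.05). Fos, the AP-1 factor gene most used as an activity marker, read 1713, 1041, 844, 1385 and 1768 on KO arrays and 963, 2179, 1775, 1560 and 1728 on WT arrays. Both groups covered nearly the same range, and the difference was -0.29 (SE 0.22, interval -0.76 to 0.18, limma adjusted p = 0.610). The neuron-specific factor gene Npas4 was at -0.06 (SE 0.33, limma adjusted p = 0.954). Those with the smallest p were the stress gene Gadd45b at -0.54 (SE 0.21, limma adjusted p = 0.303) and Csrnp1 at -0.47 (SE 0.21, limma adjusted p = 0.365). Among 9 AP-1 factors, 7 were lower, with Jund at -0.67 (SE 0.16, limma adjusted p = 0.143) the nearest to the threshold. This list shares Fos, Fosb, Fosl2, Jun, Junb and Atf3 with the 26, so the counts are not separate. Jund read 645 to 847 on KO arrays and 1014 to 1644 on WT arrays, with no overlap.

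Genes that act before, beside and after the members were mixed. Of 16 later activity-regulated genes 8 were higher and 8 lower, among them Rgs4, a regulator of G protein signalling, at 0.33 (SE 0.15, limma adjusted p = 0.364) and the corticotropin-releasing hormone gene Crh at 0.70 (SE 0.38, limma adjusted p = 0.451). For Rgs4, 1 of 3 probe sets went the opposite way. Of 20 upstream signalling genes and factors 13 were higher, with a median of 0.05 and 0 called. Creb1, which encodes the factor that binds the CRE, read 582, 580, 661, 571 and 533 on KO arrays and 461, 463, 390, 415 and 346 on WT arrays. The groups did not overlap in this probe set, at 0.49 (SE 0.15, limma adjusted p = 0.205), but 3 of the gene's 6 probe sets went the opposite way. The calcineurin subunit gene Ppp3r1 was at 0.57 (SE 0.20, limma adjusted p = 0.255).

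Of 16 partners and receptors 7 were higher and 9 lower, and 0 were called. Nab2, which encodes a co-repressor of EGR factors and is itself an EGR target, was at 0.46 (SE 0.31, limma adjusted p = 0.545). The BDNF receptor gene Ntrk2 was at -0.27 (SE 0.17, limma adjusted p = 0.526), with 3 of its 8 probe sets on the other side of 0, and Rxrb, a possible dimer partner of NR4A receptors, at -0.47 (SE 0.15, limma adjusted p = 0.215), with 519 to 639 on KO arrays and 717 to 1038 on WT arrays and no overlap. Furin, which encodes a protease that cleaves the BDNF precursor, was at -0.43 (SE 0.22, limma adjusted p = 0.420).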

How the data were processed

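Each array had been scaled as a whole before deposition: the deposited intensity values are linear, never below 0, and come from GCOS (per the submitters' processing notes), and the trimmed mean (2% off each end) is 199.9 on every array. Neither its version and settings nor detection calls are known here. Of 45101 probe sets, 64 controls were left out; 34945 named 1 gene in the platform annotation, which can be old, 932 named several and 9160 none. Of the first, 34741 matched RefSeq (GRCm38.p6) by Entrez ID.

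The members, lists and tests were chosen with earlier results of these data known. Values were tested as log2(intensity + 16) by limma 3.58.1 (R 4.3.3; lmFit, eBayes with an intensity trend) over all 45037 probe sets with no filter, genotype the only term, 5 against 5 arrays. Fold changes on this scale understate changes of dim genes. A gene outside the members was represented by its brightest probe set (mean of log2 values). All probe sets of the members are named, with the 2 genes of smallest p in each other list, Fos, Npas4, Ntrk2, Nab2 and Creb1; marker genes beyond these were named after their values were seen. Correlations used residuals from group means and exact permutation within groups (14400 arrangements; Python 3.11.15, numpy 2.4.6, pandas 2.3.3). No 2 arrays held equal values at more than 0.00443% of probe sets. Same-numbered KO and WT arrays did not deviate together (r from -0.049 to 0.027). Such low correlations cannot exclude that the numbers pair mice, and the labels do not say. The fit was tested on simulated data. Replicates are separate mice per the labels; precision is limited by how many arrays there are.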

Additional observations from a re-analysis of the deposited data

Results flagged for a closer look

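In 10 of 50 sets of 5 arrays (25 probe sets in each group), 1 array was far from the other 4 by Dixon's test. For normally distributed values chance alone gives this in about 1 in 20. The share over all probe sets is not known here, so the count does not set the members apart. The flags of Nr4a2 on KO replicate 2, and those on WT replicate 4, are repeat readings of 1 gene. KO replicate 3 was high in Homer1 1437363_at, at 2908 where the other KO arrays read 868 to 1134, in Nr4a1 1416505_at, at 95.01 beside 47.3 to 54.2, and in the dim Nr4a3 1421079_at, at 16.3 beside 0.627 to 2.60. KO replicate 2 was high in Nr4a2 1455034_at, at 306 beside 37.8 to 56.1, and in Nr4a2 1450750_a_at, at 105 beside 30.9 to 45.1. KO replicate 1 was high in the dim Nr4a2 1433423_at, at 8.16 beside 0.818 to 2.51. WT replicate 4 was high in Nr4a2 1433423_at, at 33.6 beside 1.48 to 4.32, and in 1433422_at, at 41.8 beside 2.40 to 7.09, and low in Bdnf 1422168_a_at, at 42.8 beside 62.3 to 70.6. WT replicate 3 was low in Bdnf 1422169_a_at, at 41.7 beside 140 to 169.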

How the results depend on the processing

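The count of member probe sets called stayed at 0 in every setting tried except median centring, which gave 3, and the bright Homer1 probe sets and Egr1 were higher under the KO label in all of them. Over all probe sets, 0 calls became 550 with median centring (545 higher, 5 lower), 8 with 1 probe set per gene and the dimmest 40% of genes left out, and 1 with the replicate number as a block (the replicate block, which called the striatal marker Pde10a); leaving out 1 array gave 0 to 1 (1 without KO replicate 1 and 1 without KO replicate 4). No member was called under the block. In the fit reported above, an adjusted p below 0.1 also gave 0. At 0.05, 0 were called with pseudocounts of 1 and 64, filters on the dimmest 40% or 60%, and no trend. Array weights, both spike-in settings and the hybridization control covariate gave 0 at 0.05 too. Some of these settings would give calls at 0.1, since the smallest limma adjusted p was 0.061 with the dimmest 60% left out. No difference whose direction turned had passed the threshold. With median centring Nr4a1 was at 0.16, Nr4a2 at 0.096 (1450750_a_at), 0.19 (1433422_at) and 0.017 (1433423_at), Nr4a3 1421079_at at 0.067, Bdnf at 0.069 (1422169_a_at) and 0.052 (1422168_a_at), Npas4 at 0.22 and Ntrk2 at 0.014. With quantile normalization Nr4a1 was at 0.034, Nr4a2 at 0.021 (1450750_a_at) and 0.049 (1433422_at), and Npas4 at 0.14. With the hybridization control covariate Nr4a1 was at 0.53, Nr4a2 1433422_at at 0.23, Nr4a3 1421079_at at 0.16, Homer1 1425710_a_at at -0.039, Npas4 at 0.091, Mag at 0.22, Aqp1 at 0.21, Folr1 at 0.074 and Crh at -0.24. Over only the arrays that had spike-in signal, Nr4a2 was at 0.13 (1447863_s_at) and 0.014 (1450750_a_at), Bdnf 1422169_a_at at 0.042 and Fos at 0.059. Leaving out 1 array turned Egr2 1427683_at (-0.16 to 0.24), Egr3 1421486_at (-0.052 to 0.43), Nr4a1 (-0.33 to 0.033), Nr4a2 1455034_at (-0.080 to 0.60), 1433422_at (-0.24 to 0.19) and 1433423_at (-0.36 to 0.024), Homer1 1425710_a_at (-0.10 to 0.15) and Npas4 (-0.28 to 0.10). The cause of these shifts was not tested. The number of pairs of members that passed was 0 with quantile normalization too (3 at unadjusted exact p below 0.05). With no detection calls, signals as dim as those of Arc, Egr4 and the 3 dim Homer1 probe sets cannot be told from background here.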

Other observations

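Marker genes of the tissue's cell types gave the following differences, none of them called by limma. Neuronal and hypothalamic genes included Snap25, which encodes a synaptic vesicle fusion protein, at 0.60 (adjusted p = 0.182), Stmn2 at -0.35 (0.440), Gad1, which makes GABA, at 0.97 (0.179) and the glutamate transporter gene Slc17a6 at 0.41 (0.282). Of the 2 Gad1 probe sets, 1 went the opposite way. Among 15 preoptic and hypothalamic markers, 9 were higher and 6 lower, the lower ones including Oxt at -0.53 (0.320) and Hcrt at -0.76 (0.365). Cortical markers included Emx1 at -0.73 (0.320) and Tbr1 at 0.44 (0.495). Among glia, the astrocyte filament gene Gfap was at -0.73 (0.143) and Gja1 at 0.46 (0.352). The microglial receptor genes Csf1r and Cx3cr1 were at -0.58 (0.171) and -0.65 (0.442). The myelin genes Mog and Mag were at -0.80 (0.311) and -0.59 (0.422), with Mog dim, at the 31.8th percentile of level. The much brighter myelin genes Mbp and Mobp were at -0.08 (0.865) and 0.10 (0.827). Vascular and blood genes included Flt1 at -0.53 (0.356), Cdh5 at -0.47 (0.498), Ptprc at 0.44 (0.447) and Hba-a1 at -0.43 (0.529). Of the choroid plexus genes, Aqp1 was at -0.48 (0.529) and Folr1 at -0.34 (0.681). Ttr, at 0.34 (0.872), and Kl, at 0.10 (0.918), went the other way. Probe sets of the same gene lay on the other side of 0 in 4 of 6 for Gja1 and 2 of 4 for Flt1. The same held in 1 of 2 for Ptprc, 2 of 8 for Mbp and 2 of 5 for Mobp.

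By the similarity of their pattern over the 10 arrays with group means removed, the genes nearest to Egr1 among 13489 compared were Hhip (r = 0.946), Zbtb11 (0.945), Slc30a1 (0.935), Atxn7l3b (0.932) and Sorl1 (0.928). Those nearest to the dim Arc were Rad52 (r = 0.971), Ralyl (0.947), Afg3l1 (0.933), Ceacam1 (0.931) and Tyw1 (0.930). These are the highest of many correlations over 10 arrays and are given as a description. None of the 10 genes was called by genotype, with limma adjusted p from 0.257 to 0.945, and none is a member or on the lists of activity-regulated genes.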
